A study of Homo sapiens with 41 samples.

Results

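The genes followed here are 10 of the 58721 genes in the count table: 5 receptors for messengers that serum carries (LPAR1, S1PR1, S1PR3, F2R and F2RL1) and 5 regulators of G protein signalling (RGS2, RGS3, RGS4, RGS16 and RGS20). They were chosen by name, through the GENCODE symbols of their Ensembl identifiers, and all 10 were among the 21629 genes that passed the filter on low counts and were tested. Total RNA came from T98G cells, a human glioblastoma line, that had been grown in 10% fetal calf serum, then kept in medium without serum for 72 h and then given 20% fetal calf serum. There were 41 libraries, 1 for each time from 0 min (starved cells, no serum given back) to 400 min in steps of 10 min, and the 72 h of starvation is shared by all of them. No time had a second library, so each standard error (SE) below comes from the spread of the libraries around a smooth curve of time, and the p-values measure that spread, which need not hold all variation between cultures.

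Lysophosphatidic acid (LPA) and sphingosine 1-phosphate (S1P) are lipids that platelets and other cells release into serum, and thrombin is the protease that forms when blood clots. All act on G protein-coupled receptors of the cell surface (the LPA, S1P and protease-activated receptors), which switch on G proteins of the Gi, Gq and G12/13 classes and through them calcium release and growth signals. RGS proteins end such signals: they speed up the hydrolysis of GTP by the alpha subunit and so return the G protein to its resting state.

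Total counts ranged from 18198706 (20 min) to 64918350 (70 min). Among markers of the line, VIM, CD44 and TNC were abundant, whereas the astrocyte and stem cell markers GFAP, S100B and SOX2 had mean normalized counts of 1.66, 1.29 and 0.237, so only 3 of 8 markers reached a mean of 50. Their summed level ran from 57515.6 to 135456.1. The 6 endothelial markers summed to 34.2 to 67.4 normalized counts per library with none at a mean of 50, and the 8 leukocyte and platelet markers to 57.2 to 103.3, mostly ITGAM with a mean of 66.5, while PF4 had no count in any library. Endothelial cells are known for S1PR1 and platelets for F2R, and their markers were low but not all at 0. VWF and PECAM1 had means of 18.8 and 11.5 normalized counts, and the platelet gene ITGA2B went from 12.45 at 0 min to 0 at 400 min (-3.10 ± 0.77, adjusted p = 0.00066). CDH5 was called higher at 240 and at 400 min, from 0 in the first library to 6.86 in the last. The endothelial sum had a median of 45.8 and S1PR1 itself a mean of 46.9 normalized counts. Neither value is scaled for gene length, so the 2 cannot be compared as levels. At 400 min 1 of the 4 tested endothelial markers was called higher and 0 lower, while S1PR1 was lower by -2.83 ± 0.26. The part of these markers in the results was not tested. In a bulk sample, fewer cells with a transcript and less of it per cell cannot be told apart.

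All 10 genes changed over the course (edgeR, adjusted p below 0.01), where 75.5% of all tested genes did. The Ljung–Box test, which asks whether neighbouring times resemble each other, called all 10 as well, against 60.9% of tested genes. Of the 10, 5 ended lower at 400 min than at 0 min (LPAR1, S1PR1, F2R, RGS2 and RGS16) and 4 higher (F2RL1, RGS3, RGS4 and RGS20), and S1PR3 rose and came back. Without the 0 min library, the calls of F2R, RGS16 and RGS4 at 400 min were lost. With size factors from the spike-ins, those of F2R and RGS16 were lost. The calls of S1PR3 against 0 min were lost in both cases.

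LPAR1 encodes the LPA1 receptor and lies on the minus strand of chromosome 9 (GRCh38, chr9:110873263-111038470). Its normalized count, the count divided by the size factor of its library, in the libraries at 0, 30, 60, 120, 240 and 400 min was 2876, 2756, 3208, 2614, 1313 and 698. Over the 41 libraries it ran from 656 at 380 min through a median of 1746 to its highest value at 60 min. The gene did not pass the test against 0 min up to 120 min and was far lower afterwards, with the middle of the fall at 210 min in a running mean of 3 libraries. The curve changed by -0.10 ± 0.09 (SE) on the log2 scale at 120 min, which did not pass the test (edgeR, adjusted p = 0.47), and then passed it with -1.16 ± 0.08 at 240 min (adjusted p = 2.4e-17) and -2.12 ± 0.09 at the end (adjusted p = 6.3e-25).

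S1PR1, on chromosome 1 (chr1:101236865-101243713, plus strand), encodes the S1P receptor that couples to Gi alone. It was a minor transcript, with 112, 120, 110, 72.9, 18.4 and 19.6 normalized counts at those same times, a median of 35.0 and a lowest value of 9.73 in the 390 min library. Every library up to 70 min stood at 84.2 or above and every library from 230 min on at 23.2 or below. Both times were picked from these values, and the gap between the stretches was not tested. In a running mean of 3 libraries the S1PR1 fall had its middle at 130 min, beside 210 min for LPAR1 (difference not tested). The change was -0.75 ± 0.20 at 120 min (adjusted p = 0.0038), -2.28 ± 0.21 at 240 min (adjusted p = 5.7e-13) and -2.83 ± 0.26 at 400 min (adjusted p = 9.8e-13), and the call at 120 min was lost without the 0 min library (-0.42, adjusted p = 0.82) and with size factors from the spike-ins (-0.77, adjusted p = 0.041).

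S1PR3, also on chromosome 9 (chr9:88990863-89005155, plus strand), encodes an S1P receptor that reaches Gi, Gq and G12/13. At the same times it had 2473, 2543, 2752, 3060, 3226 and 2445 normalized counts, between a lowest value of 2327 at 40 min and a highest of 3482 at 190 min around a median of 2883. The rise was small and temporary, and the gene ended where it began. It was higher by 0.33 ± 0.06 at 120 min (adjusted p = 4.8e-06) and by 0.31 ± 0.05 at 240 min (adjusted p = 3e-06). At 400 min the difference was -0.02 ± 0.06, with a 95% interval of -0.13 to 0.09. Both calls were lost with spike-in size factors (0.33, adjusted p = 0.40, and 0.35, adjusted p = 0.18) and without the 0 min library (0.40, adjusted p = 0.12, and 0.38, adjusted p = 0.085), where the values were as large or larger and the errors wider.

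F2R encodes PAR1, the main thrombin receptor, which thrombin switches on by cutting off its N-terminal end. It lies on chromosome 5 (chr5:76716126-76735770, plus strand). Its normalized counts read 5288, 5010, 5253, 4924, 4058 and 4025 at these times, with a median of 4682, a highest value of 5565 at 20 min and a lowest of 3306 at 380 min. The decline was shallow and late. It reached -0.26 ± 0.07 at 240 min (adjusted p = 0.0033) and -0.49 ± 0.08 at 400 min (adjusted p = 1.3e-06). These calls rested on the 0 min library, since without it the values were 0.14 (adjusted p = 0.77) and -0.10 (adjusted p = 0.81), the 10 min library being the lowest of the early ones at 4610. With spike-in size factors neither passed (-0.22, adjusted p = 0.50, and -0.45, adjusted p = 0.14), nor did the Ljung–Box test (adjusted p = 0.13).

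F2RL1 encodes PAR2, which trypsin-like proteases cut and thrombin does not readily activate. It is the next member along the same strand of chromosome 5 (chr5:76818933-76835315), 83.2 kb beyond the end of F2R. Unlike F2R, it rose: the libraries at 0, 30, 60, 120, 240 and 400 min gave normalized counts of 540, 620, 795, 1319, 1675 and 1191, with a lowest value of 472 at 10 min, a median of 1319 and a highest of 1954 at 230 min. Every library from 50 min on lay above every library up to 40 min, a cut picked from these values and not tested. The rise passed the test from 60 min (0.64 ± 0.11, adjusted p = 1.2e-05), grew to 1.45 ± 0.11 at 120 min (adjusted p = 1.5e-15) and then 1.77 ± 0.10 at 240 min (adjusted p = 4.1e-19), and had partly receded by 400 min (1.03 ± 0.11, adjusted p = 3.4e-11). With spike-in size factors the value at 60 min was 0.40 (adjusted p = 0.50).

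**Figure D1:**
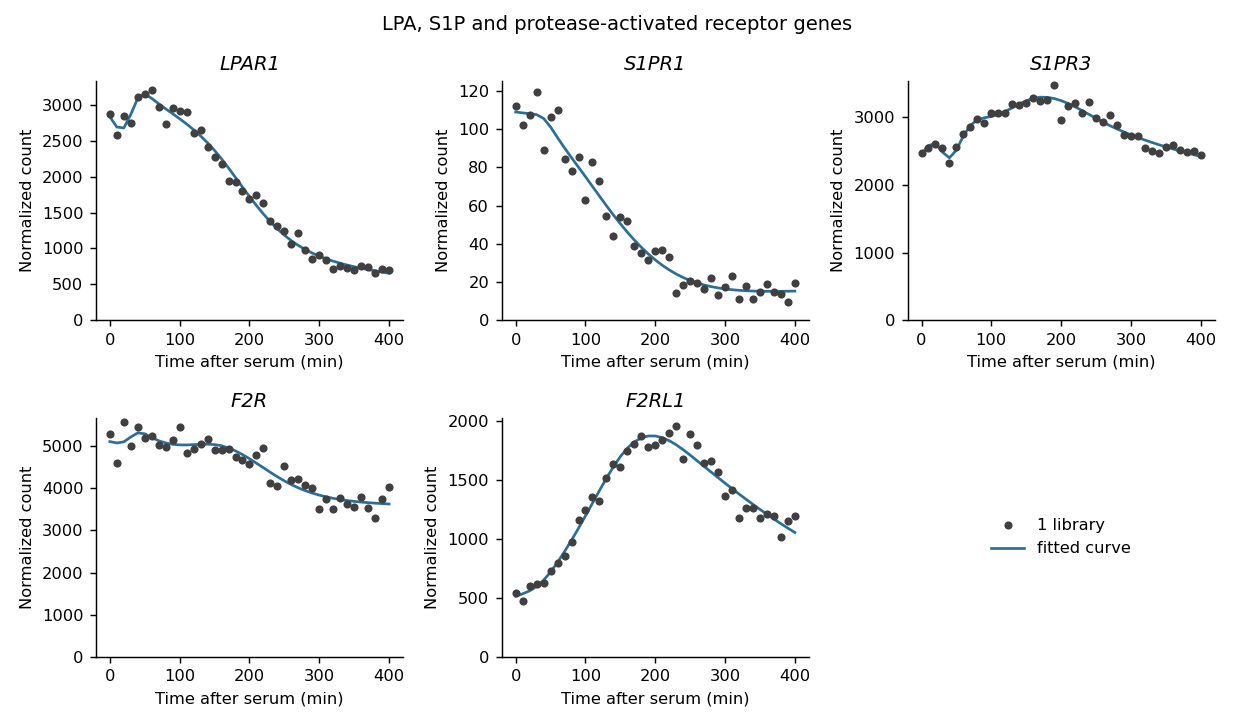
Normalized count (y axis, linear from 0, a separate scale in each panel) of the 5 receptor genes against time after serum in min (x axis). Each point is 1 of the 41 libraries and the line is the fitted curve, and F2RL1 climbs to 1954 at 230 min while LPAR1 and S1PR1 fall to 698 and 19.6 at 400 min.

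RGS2 encodes a small RGS protein with a preference for Gq. It lies on chromosome 1 (chr1:192809039-192812275, plus strand). It began at 4696 normalized counts, and its course had 2 falls and a rise between them. Libraries at 20 to 40 min lay between 5046 and 5326 and those at 110 to 140 min between 1474 and 2445. Those at 190 to 230 min lay between 2611 and 3306 and those at 350 to 400 min between 774 and 904. None of these 4 stretches, which were picked at the tops and bottoms of the course, overlapped another. Libraries at 240 to 280 min, between 1702 and 2635, overlapped those at 110 to 140 and those at 190 to 230 min. The lowest, median and highest of the 41 libraries were 774 at 380 min, 2105 and 5326 at 30 min.

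Step by step, RGS2 fell by 0.50 ± 0.10 on the log2 scale from 30 to 60 min (adjusted p = 0.00037; lost with spike-in size factors, adjusted p = 0.097, and between windows of time, adjusted p = 0.086) and by 1.21 ± 0.10 from 60 to 120 min (adjusted p = 2.9e-12). It then rose by 0.56 ± 0.08 from 120 to 240 min (adjusted p = 9.8e-08) and again fell by 1.67 ± 0.10 from 240 to 400 min (adjusted p = 5.9e-17). Against 0 min the curve stood at -1.53 ± 0.12 at 120 min (adjusted p = 4.4e-13), -0.98 ± 0.12 at 240 min (adjusted p = 4.8e-09) and -2.64 ± 0.13 at 400 min (adjusted p = 5.5e-20). The rise from 120 to 240 min was not followed by a curve with 5 degrees of freedom (-0.01, adjusted p = 0.97) and was 0.21 (adjusted p = 0.24) between windows of libraries at 110 to 140 and 240 to 280 min. Read at its top instead, a choice made after the values were seen, it was 1.05 ± 0.08 at 200 min on the curve (adjusted p = 5.9e-13) and 0.77 ± 0.14 between the windows at 110 to 140 and 190 to 230 min (adjusted p = 6.6e-05).

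RGS3, on chromosome 9 (chr9:113444731-113597743, plus strand), encodes a protein that acts on Gi and Gq subunits and comes in several lengths. It was the one member past the test at 30 min. From 1164 normalized counts at the start, the lowest of the course, it passed through 2252, 2976, 4177, 4064 and 3162 in the libraries at 30, 60, 120, 240 and 400 min, with a median of 3494 and a highest value of 4357 at 160 min. Every library from 50 min on exceeded every library up to 40 min, with the cut read from the values and not tested. The change was 0.80 ± 0.11 at 30 min (adjusted p = 9e-07), 1.32 ± 0.10 at 60 min (adjusted p = 1.4e-14), 1.88 ± 0.10 at 120 min (adjusted p = 4.6e-20) and 1.54 ± 0.10 at 400 min (adjusted p = 3e-17). The rise had its middle at 60 min, the earliest among the 5 genes followed as rising. With spike-in size factors the value at 30 min was 0.65 (adjusted p = 0.25).

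RGS20, on chromosome 8 (chr8:53851795-53959303, plus strand), encodes a member of the RZ group of RGS proteins, known for acting on Gz and Gi. The libraries named above for LPAR1 gave 200, 217, 251, 364, 829 and 2002 normalized counts here, with the first library the lowest, the last the highest and a median of 755. The change did not pass at 60 min (0.29 ± 0.13, adjusted p = 0.18), and was 0.93 ± 0.13 at 120 min (adjusted p = 6.4e-08), 2.26 ± 0.12 at 240 min (adjusted p = 2.1e-20) and 3.32 ± 0.13 at 400 min (adjusted p = 1.6e-25), a 10.0-fold difference. It was the one member that still rose from 240 to 400 min (1.06 ± 0.06, adjusted p = 8.3e-19).

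RGS4 and RGS16 encode short RGS proteins that act on Gi and Gq subunits, and both genes lie on chromosome 1 (chr1:163068775-163076802, plus strand, and chr1:182598623-182604389, minus strand). RGS4 was low throughout, with 27.0, 27.0, 57.1, 55.9, 86.7 and 101.9 normalized counts in the same libraries, a lowest value of 19.1 at 10 min and a median of 71.9. Libraries up to 50 min lay at 40.31 or below and those from 150 min on at 59.15 or above, times picked from these values. It was higher by 0.95 ± 0.28 at 120 min (adjusted p = 0.0077), 1.71 ± 0.26 at 240 min (adjusted p = 2.2e-07) and 1.71 ± 0.27 at 400 min (adjusted p = 6.5e-07). Without the 0 min library none of these passed, with larger values of 1.95, 2.73 and 2.72 (adjusted p = 0.24, 0.025 and 0.018). The call at 120 min was also lost with spike-in size factors (adjusted p = 0.12), in DESeq2 (adjusted p = 0.012) and without any 1 of the 10, 20, 100, 110, 120 and 150 min libraries.

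RGS16 was close to the limit of detection. Libraries up to 90 min held 2 to 22 reads each (median 14.6 normalized counts, highest 23.7 at 30 min) and those from 100 min on 0 to 8 (median 2.36). Over all 41 libraries the median was 3.40. It had 0 counts at 170 and 360 min, where 3 counts, taken by convention as an approximate upper limit for a count of 0, would be 2.64 and 2.95 normalized counts. The curve gave -2.15 ± 0.66 at 240 min (adjusted p = 0.0058) and -2.51 ± 0.81 at 400 min (adjusted p = 0.0079). Both values turned to 4.67 and 4.33 without the 0 min library (adjusted p = 0.22 and 0.23), where the curve is carried back from a 10 min library that held 2 reads. The step from 60 to 120 min does not rest on that library, and RGS16 fell over it by 1.77 ± 0.48 (adjusted p = 0.0046), a call lost without the 60, 70, 80, 100, 110 or 120 min library, with spike-in size factors (-1.54, adjusted p = 0.033) and between windows of time (-1.52, adjusted p = 0.026). The call at 240 min was also lost with spike-in size factors (-2.16, adjusted p = 0.011) and between windows of time (-1.89, adjusted p = 0.02). The call at 400 min was lost in 7 of the 10 alternatives that gave a value, and without the 360, 380 or 400 min library as well.

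**Figure D2:**
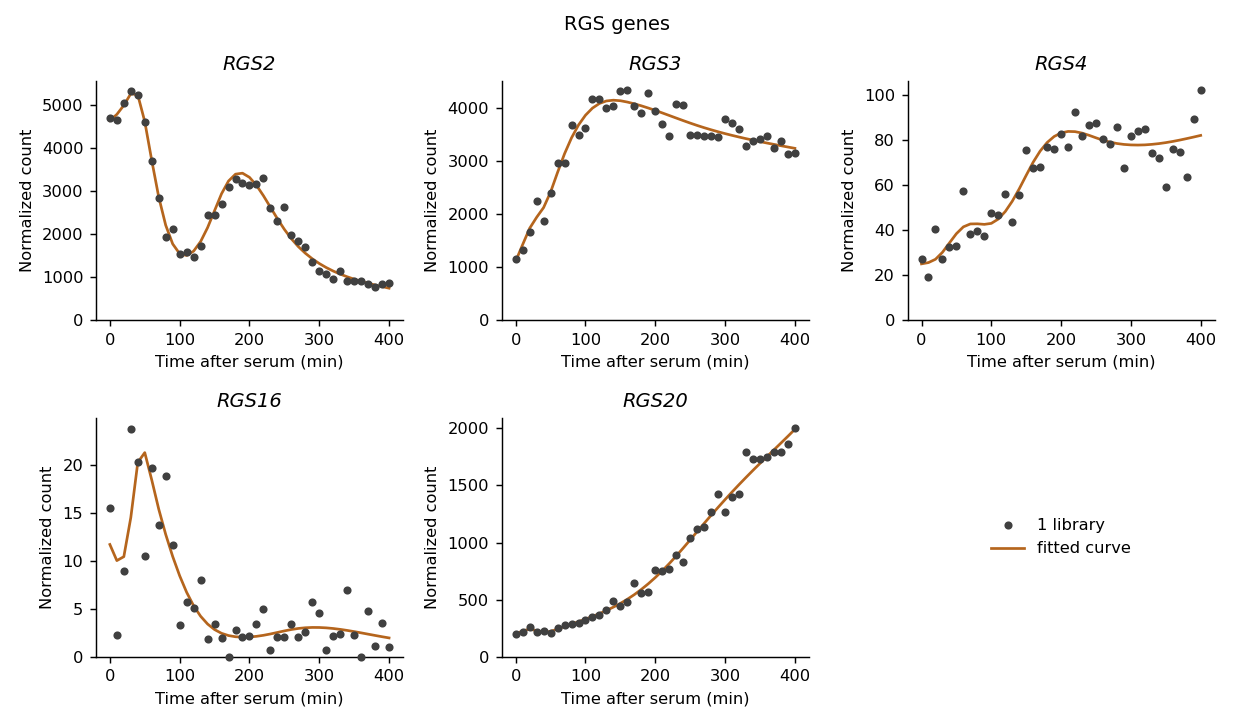
Normalized count (y axis, linear from 0, a separate scale in each panel) of the 5 RGS genes against time after serum in min (x axis), with 1 point per library and the fitted curve as a line. RGS2 falls, rises to 3306 at 220 min and falls again, RGS3 and RGS20 rise to 4357 and 2002, and RGS16 stays at or below 23.7.

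Counted together, 1 member was higher at 30 min (RGS3), where 1.71% of all tested genes were, and none was lower, where 0.342% were. For this count of 0, no member was lower at an unadjusted p below 0.05 in edgeR, and DESeq2 called none. At 60 min, RGS3 and F2RL1 were higher, against 5.15% of tested genes. No member passed in the lower direction at 60 min, against 1.23%. One member, RGS2, was lower there at an unadjusted p below 0.05 in edgeR, and DESeq2 called 0.

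At 120 min, 5 members were higher (13.6% of tested genes) and 2 lower (6.75%). The 240 min point had 5 members up (21.6%) and 5 down (18.5%). The last point had 4 up (24.2%) and 5 down (22.4%). The members were thus called more often than tested genes in general at the later times, but they were picked by name with earlier results of these data known, and so the shares are a description. The 5 receptors had a median change of -0.49 at 400 min and the 5 RGS genes one of 1.54, beside 0.00 for all tested genes. Both sets were split in direction. The receptors ran from -2.83 (S1PR1) to 1.03 (F2RL1) and the RGS genes from -2.64 (RGS2) to 3.32 (RGS20).

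**Figure D3:**
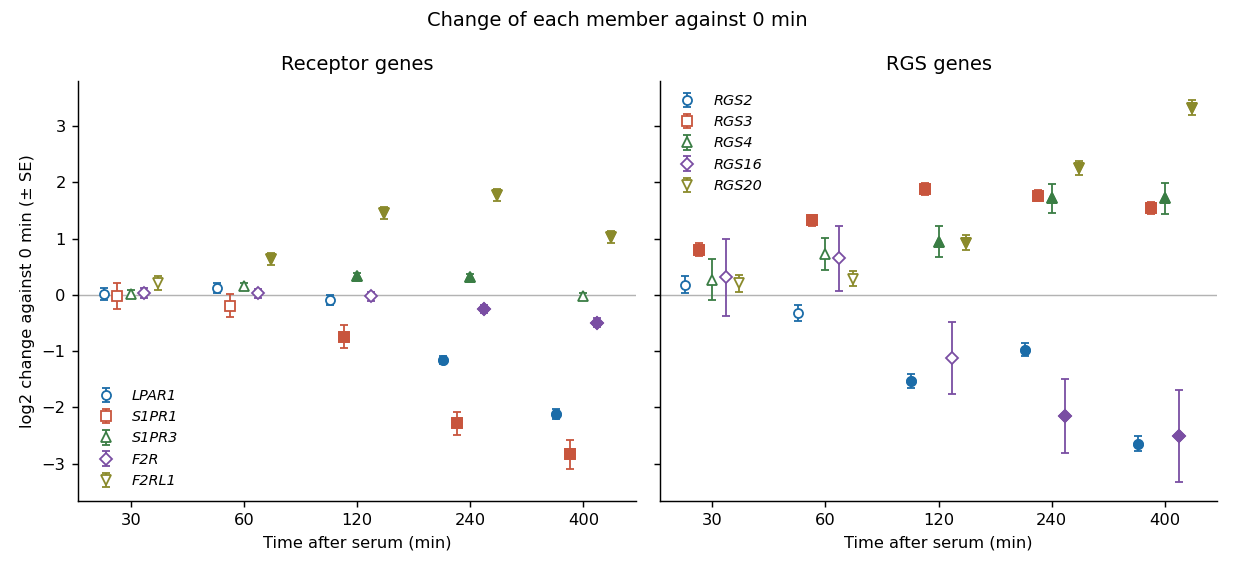
log2 change of each member against 0 min (y axis) at 30, 60, 120, 240 and 400 min after serum (x axis, evenly spaced categories), receptors on the left and RGS genes on the right. Bars are ± 1 SE of the fitted curve, filled symbols passed the test at an adjusted p below 0.01, and RGS20 ends highest at 3.32 and S1PR1 lowest at -2.83.

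Between successive times, 2 members rose from 30 to 60 min (RGS3 and F2RL1, against 4.75% of tested genes) and 1 fell (RGS2, against 3.23%). Both rises lost their calls with spike-in size factors (RGS3 0.43, adjusted p = 0.1, and F2RL1 0.32, adjusted p = 0.43). That of F2RL1 was also lost between windows of time (0.36, adjusted p = 0.012). From 60 to 120 min, 4 rose (F2RL1, S1PR3, RGS3 and RGS20, against 11.1%) and 3 fell (S1PR1, RGS2 and RGS16, against 5.03%). Of the rises, that of S1PR3 lost its call with spike-in size factors (0.41, adjusted p = 0.074). From 120 to 240 min, 4 rose (F2RL1, RGS2, RGS4 and RGS20, against 18% of tested genes) and 3 fell, all receptors (LPAR1, S1PR1 and F2R, against 18.1%). With spike-in size factors, the rise of F2RL1 (0.36, adjusted p = 0.041) and the fall of F2R (-0.19, adjusted p = 0.31) over this step lost their calls. From 240 to 400 min, RGS20 alone rose (14.8% of tested genes) and 6 fell (14.5%), namely LPAR1, S1PR3, F2R, F2RL1, RGS2 and RGS3. The fall of S1PR3 lost its call with spike-in size factors (-0.34, adjusted p = 0.085). That of F2R did so with them (-0.23, adjusted p = 0.35) and with evenly spaced knots (-0.19, adjusted p = 0.017). RGS3 passed in this last step at -0.22 ± 0.06 (adjusted p = 0.0034), a call lost without the 390 or the 400 min library, with spike-in size factors (adjusted p = 0.27), with evenly spaced knots (adjusted p = 0.016) and between windows of time (-0.12, adjusted p = 0.13). The fall of S1PR1 from 60 to 120 min (-0.56 ± 0.16, adjusted p = 0.0082) was lost without any 1 of 8 libraries, with spike-in size factors (-0.34, adjusted p = 0.29), with no filter on low counts and between windows of time (adjusted p = 0.012 in both) and without the 3 libraries with the fewest counts (adjusted p = 0.021), and that of RGS2 over this step with 5 degrees of freedom (-0.28, adjusted p = 0.092).

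The counts against 0 min depended on the 0 min library. Without the 0 min library, the curve is carried back from 10 min, and the members called higher and lower numbered 2 and 1 at 120 min, 3 and 1 at 240 min, then 3 and 3 at the end. Calls lost in this way that are not given above were S1PR1 (-1.95, adjusted p = 0.016) and RGS2 (-0.83, adjusted p = 0.13) at 240 min and RGS20 (1.02, adjusted p = 0.086) at 120 min. With spike-in size factors the median of all genes moved to -0.22 at 60 min. There RGS3 stood at 1.07 (edgeR, adjusted p = 0.00023) and F2RL1 at 0.40 (adjusted p = 0.50). RGS4 stood at 0.53 (adjusted p = 0.55) and RGS2 at -0.55 (adjusted p = 0.33). With the size factors used here, the values of RGS3, F2RL1, RGS4 and RGS2 were 1.32, 0.64, 0.73 and -0.32.

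Levels of different genes can be compared only per length, here as normalized count per kb of the gene's merged exons. Over the 0 and 10 min libraries, RGS2 was the highest of the 10 at 2237 per kb, followed by F2R at 1246, LPAR1 at 659, S1PR3 at 183 and F2RL1 at 173. RGS3 came next at 94.3, then RGS20 at 65.7, S1PR1 at 20.5, RGS4 at 4.88 and RGS16 at 3.70. The ranges of the 2 libraries overlapped for S1PR3 and F2RL1 (180.5 to 186 and 161 to 184.5) and for RGS4 and RGS16 (4.05 to 5.70 and 0.935 to 6.46), and for no other neighbours in this order.

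At the end, over the 390 and 400 min libraries, the order had changed: F2R led at 978 per kb, RGS20 had moved from the 7th to the 2nd place at 603, and RGS2 had fallen to 404, beside F2RL1 at 400.2 (400 to 407 and 394 to 406). RGS3 followed at 239.6, S1PR3 at 181, LPAR1 at 170, RGS4 at 20.2, S1PR1 at 2.81 and RGS16 at 0.938. With the length of the canonical transcript instead, S1PR3 and RGS3, whose merged exons of 13.7 and 13.2 kb are about 3 times as long as that transcript (4.33 and 4.12 kb), stood at 580 and 301 at the start and at 571 and 765 at the end, and RGS2 and F2RL1 stood at 625 and 410 at the end. By that length S1PR3 kept the 4th place at the start, and F2RL1 and RGS3 changed places there. At the end RGS3 was 3rd, RGS2 4th, S1PR3 5th and F2RL1 6th.

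**Figure D4:**
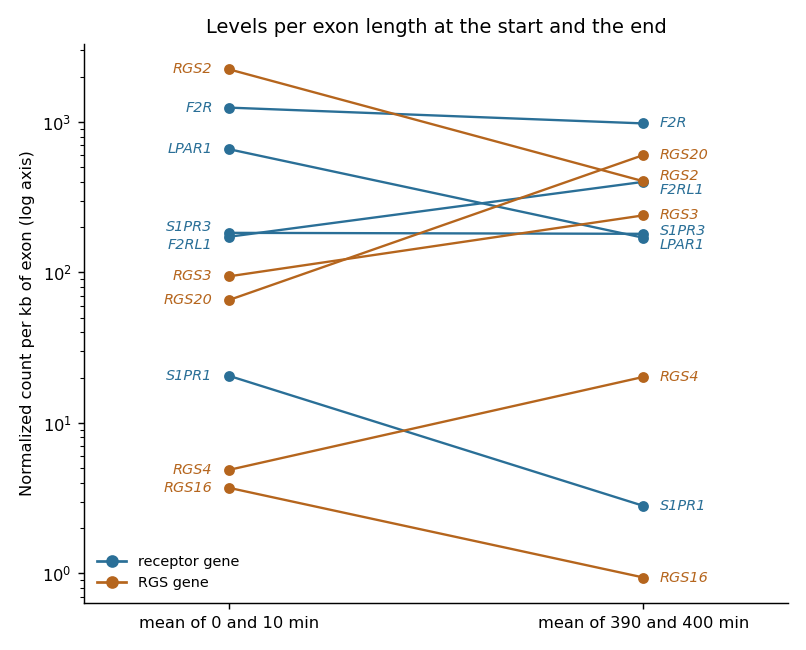
Normalized count per kb of merged exons (y axis, log scale) of the 10 members over the first pair of libraries (0 and 10 min, left) and the last pair (390 and 400 min, right), with receptors in blue and RGS genes in brown. RGS2 drops from 2237 to 404 and RGS20 climbs from 65.7 to 603, while F2R goes from 1246 to 978.

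Across the 41 libraries, LPAR1 ran opposite to RGS20 (Pearson's r of log2 normalized counts -0.97) and together with F2R (0.95) and S1PR1 (0.94). These values describe slow trends over the same libraries and times, which any pair of steadily changing genes shares.

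The other genes of the same receptor families did not share one direction. Of 10 further LPA, S1P and protease-activated receptors, 6 had enough reads to be tested. At 400 min 1 was higher (S1PR2) and 4 lower, with a median of -0.58. These and the next counts stand beside 24.2% of all tested genes higher and 22.4% lower at 400 min, and with lists this short nothing particular to a list is read from them. LPAR6, another LPA receptor, dropped from 651.5 normalized counts to 75.5 between the first and last library (-3.39 ± 0.18, adjusted p = 2.4e-21), and S1PR5 was lower by -0.82 ± 0.17 at 400 min (adjusted p = 9.1e-05). S1PR2, which favours G12/13, was higher by 0.48 ± 0.11 at 240 min (adjusted p = 0.00033).

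Of 16 further RGS genes, 10 were tested, with 2 higher and 5 lower at 400 min and a median of -0.75. RGS9 fell from 456.5 to 128 normalized counts (-1.92 ± 0.11 at 400 min, adjusted p = 1.1e-19). RGS14 and RGS17 were lower at 240 min by -0.94 ± 0.15 (adjusted p = 5.5e-07) and -1.06 ± 0.25 (adjusted p = 0.00063).

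Changes among the G proteins were smaller. Of 12 alpha subunit genes 10 were tested, and at 400 min 3 were higher and 2 lower with a median of 0.24. Those with the largest changes were GNA12 (0.57 ± 0.07 at 240 min, adjusted p = 1.9e-09), which encodes G12, GNAI3 (0.49 ± 0.11 at 400 min, adjusted p = 0.00033), which encodes a Gi subunit, and GNA13 (-0.42 ± 0.12 at 400 min, adjusted p = 0.0036), which encodes G13. GNAZ, the gene of the Gz subunit on which RGS20 acts, was present at a mean of 227 normalized counts.

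Among 11 genes of LPA and S1P turnover, 10 were tested, and at 400 min 4 were higher and 2 lower with a median of -0.16. SPHK1, one of the kinases that make S1P, started at 174 normalized counts, had a highest value of 4748 and was higher by 4.48 ± 0.15 at 240 min (adjusted p = 8.6e-27), whereas SPHK2, the other, was lower by -1.28 ± 0.17 at 400 min (adjusted p = 1.1e-08). PLPP3, a phosphatase that breaks down LPA and S1P outside the cell, was higher by 2.04 ± 0.10 at 400 min (adjusted p = 1.2e-22).

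Downstream of the receptors, 16 genes of Gq and G12/13 effectors were all tested, with 2 higher and 4 lower at 400 min and a median of -0.11. PLCB4, a phospholipase that Gq switches on, was lower at 400 min by -1.20 ± 0.18 (adjusted p = 4e-07). The 2 other genes picked from this list, with larger changes in opposite directions, are not reported here.

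Of the 7 genes of receptor desensitization, all tested, 3 were higher and 2 lower at 400 min with a median of 0.19. The kinase GRK4 was higher by 0.95 ± 0.15 at 120 min (adjusted p = 2.2e-06), and the arrestins ARRB1 and ARRB2 were lower at 400 min by -1.71 ± 0.08 (adjusted p = 2.4e-22) and -0.80 ± 0.16 (adjusted p = 5.5e-05). Among 7 partners and inhibitors of thrombin, 4 were tested, with 2 higher and 1 lower at 400 min and a median of 1.27. Of these 4, THBD and SERPIND1 were low, with means of 5.01 and 3.96 normalized counts, and SERPIND1 was 1 of the 2 higher. SERPINE2, an inhibitor of thrombin, went from 5428 to 12618 normalized counts (1.20 ± 0.06, adjusted p = 2.6e-22), and PROCR, the receptor of protein C, was lower by -0.44 ± 0.08 (adjusted p = 4e-06). The gene of thrombin itself, F2, had too few reads to be tested, at a mean of 0.304.

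Of the 20 genes that the naming rule picked from these lists, 8 lost their call with spike-in size factors (S1PR2, RGS17, GNAI3, GNA12, GNA13, GRK4, ARRB2 and PROCR). Without the 0 min library 12 did: those 8 and S1PR5, RGS14, SPHK2 and PLCB4, with RGS17 at 0.15 (adjusted p = 0.95) in place of -1.06. LPAR6, RGS9, SPHK1, PLPP3, ARRB1 and SERPINE2 were among those that passed under both. RGS17 also lost its call with evenly spaced knots (-0.43, adjusted p = 0.16), with 5 degrees of freedom (-0.79, adjusted p = 0.011) and between windows of time (-0.67, adjusted p = 0.031). GNA13 also lost its call with evenly spaced knots (-0.23, adjusted p = 0.082).

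Start-site windows from RefSeq (GRCh38.p14, 250 bases before and 50 after each start) were listed for 8 of the 10 members, with 1 to 6 starts each, and not for F2R or RGS20. They are shown for RGS2, the gene with the second rise, and F2RL1, the receptor that rose most, each as the 250 bases before the start, 5′ to 3′, with matches to the motifs named next in capitals. For RGS2 this is chr1:192808789-192809038 and for F2RL1 chr5:76818780-76819029, both on the plus strand. The RefSeq start used for F2RL1 lies inside the gene as placed above by GENCODE, which begins at base 76818933. The end of its window therefore falls within that gene span.
RGS2: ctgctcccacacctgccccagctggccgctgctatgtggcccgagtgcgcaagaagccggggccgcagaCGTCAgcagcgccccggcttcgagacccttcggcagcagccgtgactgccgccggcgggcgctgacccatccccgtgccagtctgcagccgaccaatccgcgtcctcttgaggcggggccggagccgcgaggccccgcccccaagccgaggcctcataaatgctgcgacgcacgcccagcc
F2RL1: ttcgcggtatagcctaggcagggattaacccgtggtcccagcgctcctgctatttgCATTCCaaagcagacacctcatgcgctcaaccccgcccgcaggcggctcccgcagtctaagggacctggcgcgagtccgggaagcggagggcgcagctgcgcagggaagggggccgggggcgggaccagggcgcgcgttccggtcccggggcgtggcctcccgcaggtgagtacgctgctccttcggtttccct

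The full windows were searched on both strands for 6 motifs: the cAMP response element (TGACGTCA, in 1.85% of all 35116 windows), its first 5 bases alone (TGACG, 24.6%, which the full element contains), the AP-1 site (TGANTCA, 7.71%), the TEAD site (GGAATG, 14%), the TATA box (TATAAA, 11.5%) and the CArG box bound by serum response factor (1.29%). RGS2 held 1 match to TGACG, read on the minus strand at bases -181 to -177 from the start. F2RL1 held 1 to GGAATG, also on the minus strand, at -194 to -189. The single window of S1PR1, that of RGS16 and both of S1PR3 held no match to any of these letters. Of the members with several starts, 3 of 6 windows of LPAR1, 2 of 4 of RGS4 and 1 of 5 of RGS3 held TGACG or TATAAA. No window of a member held the full cAMP response element, the AP-1 site or the CArG box, and these matches describe letters in a window and not binding.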

How the data were processed

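The authors trimmed reads of rRNA-depleted, stranded total RNA with cutadapt 1.11, aligned them to GRCh38 with STAR 2.5.2a and deposited counts per gene from featureCounts, together with a normalized signal per gene, the count divided by a DESeq2 1.24.0 size factor. Counts were used for every test, and the deposited signal served to check the size factors, which were equal to within 2.2e-15. Symbols, positions and exons came from GENCODE 44 on the same build (58207 of 58721 genes matched), no member shared exon bases with another gene on its strand, and 45 Y copies of pseudoautosomal genes were left out.

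Genes with over 10 counts in 1 library and over 2 in 3 consecutive libraries were tested. In edgeR 4.0.16 (R 4.3.3), counts with median-of-ratios size factors were fitted by quasi-likelihood as a natural spline of time (7 degrees of freedom, knots at 20, 40, 60, 100, 160 and 260 min, 33 residual degrees of freedom) and the curve was compared between times. Calls used a Benjamini-Hochberg adjusted p below 0.01 over all genes tested. The Ljung–Box test used lag 1. The fit was tested on simulated counts that rose or fell and then held, with changes only in genes at a mean normalized count of at least 50. That did not cover a rise and return, or counts as low as those of RGS16 and S1PR1. Alternatives included TMM and spike-in factors, DESeq2 1.42.0, other filters, splines and windows, and libraries left out.

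All 10 members are described. Of each other list, the up to 3 genes with the largest called change against 0 min and a mean normalized count of at least 50 are named, and F2, GNAZ and the markers beside them, while 2 of the genes so picked are not reported here. The members and lists were chosen with earlier results of these data known.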

Additional observations from a re-analysis of the deposited data

How the results depend on the processing

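The 10 members gave 90 log2 values (9 comparisons each). All kept direction and call with TMM factors, and 87 without a filter on low counts. All 10 changed over the course in each alternative that tested them, where the filter at a mean normalized count of 50 removed S1PR1 and RGS16 and left 8. With spike-in size factors 21 of the 90 values lost their call: 0, 1 and 3 members were higher at 30, 60 and 120 min, and 1, 3 and 3 lower at 120, 240 and 400 min. From 30 to 60 min 0 rose and 0 fell with them, 1 fell from 60 to 120 min and 3 fell from 240 to 400 min.

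Without the 0 min library, 2 and 3 members were higher at 120 and 240 min and 1, 1 and 3 lower at 120, 240 and 400 min, and 3 of the called values changed sign: F2R at 240 min (0.14, and -0.31 to 0.14 over the single libraries left out) and RGS16 at 240 and 400 min (4.67 and 4.33, over ranges of -2.50 to 4.67 and -2.87 to 4.33). The filter at 50 left 1, 3 and 3 lower at 120, 240 and 400 min. With evenly spaced knots 2 were higher at 30 min (F2RL1 added, 0.28) and 5 rose from 30 to 60 min. Between windows of time 1 rose and 0 fell from 30 to 60 min and 1 fell from 60 to 120 min. With 5 degrees of freedom the rise of RGS2 from 120 to 240 min became -0.01. Of the 20 genes picked from other lists, RGS17 at 240 min changed sign without the 0 min library (0.15, over a range of -1.17 to 0.15). The time of the highest count moved by over 10 min in a running mean of 3 libraries for RGS4 alone among the members, from 400 to 230 min.

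Leaving out each of the 41 libraries in turn gave 2 to 5 members higher at 120 min, 3 to 5 at 240 min, and 1 to 2, 1 to 5 and 3 to 5 lower at 120, 240 and 400 min, each lowest count being the one without the 0 min library. From 60 to 120 min 1 to 4 fell, with 1 without the 60, 70 or 100 min library. For RGS4, RGS16 and S1PR1, counts per library of at most 135 limit the precision.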

Other observations

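The order of steps seen in RGS2 was counted over the table, and no other order was counted beside it. Of the 21629 tested genes, 13 (0.0601%) fell from 60 to 120 min, rose from 120 to 240 min and fell from 240 to 400 min with each step past the test, and 5 did so with each step at least 0.5 on the log2 scale. This count was made after the values of RGS2 had been seen, and it is a description of these libraries. Among those 5, the protein-coding genes with a mean normalized count of at least 100 were RGS2 and LDLRAD4, an inhibitor of TGF-beta signalling, which went by -0.52 ± 0.13 (adjusted p = 0.0032), 1.39 ± 0.10 (adjusted p = 2e-16) and -0.50 ± 0.10 (adjusted p = 0.00012) over the same steps. LDLRAD4 had 146 normalized counts at 140 min and 483 at 240 min, while RGS2 was at 2445 at 140 min and had its second top of 3306 at 220 min.

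F2R and F2RL1 lie 83.2 kb apart on chromosome 5 and took different courses. Their normalized counts at 0 min were 5288 and 540, and at 240 min 4058 and 1675. No test of the difference between the genes was made.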
